A study of Cucumis sativus with 18 samples.

Results

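Genes that kept an abundant and nearly level transcript through ovary culture of cucumber (Cucumis sativus) were examined as candidate reference genes. Ovary culture is a way to raise embryos from ovaries that were never pollinated. A gene was kept if the highest of its 6 time means was under 1.5 times the lowest, and 1147 of 23248 genes met this. The members are the 100 of these with the highest average, so they were chosen by their mean RPKM at the 6 times, and their level and their steadiness between times are a description, not a finding. None of the 23248 IDs matched the RefSeq table at hand (0 matches), so no name, role or sequence is given for any member.

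The 18 libraries are of fresh unpollinated ovaries, of ovules cultured for 2 days and of embryos cultured for 10, 20, 30 and 60 days, 3 at each time, stated to be biological replicates. The tissue label reads ovary throughout while the time label passes from ovaries to ovules to embryos, and the material sampled thus differs between times along with the days of culture. No treatment other than the culture, and no cultivar or donor plant, is named in the labels used here. The sampled tissue could not be checked against marker genes, because the IDs carry no names.

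A reference gene is the transcript against which others are measured when RNA is quantified by PCR, and its level is taken to stay the same in every sample. Genes for the cytoskeleton, for protein synthesis and for protein turnover are commonly used in plants for this purpose. In RNA-seq the same task falls to the scaling of the libraries, because sequencing gives only shares of a library. A gene that is level under one scaling need not be level under another, and both the scaling and the spread of single libraries bear on its use.

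The values are RPKM, reads per kilobase of gene and per M (mega) assigned reads. The libraries of replicates 1 and 2 held 21.8 to 34.0 M reads assigned to genes and those of replicate 3 held 48.9 to 72.5 M, as recovered from the steps between low values, so the replicate 3 library was the deepest at every time. Replicate 1 of day 10 and of day 20 listed the fewest genes above 0, 17653 and 18591. Without this pair of libraries the rule returned 84 of the 100 members, and 45 members rather than 43 were called in the replicate comparison given further on. Of all genes tested, 5679 of 18029 rather than 4856 of 18153 were called there. In bulk RNA, fewer cells of a type and less RNA per cell cannot be told apart.

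The members ran from an average of 919 RPKM down to 44.5 RPKM, with a median of 83.8, and 15 of the 100 averaged at least 200 RPKM. They were 5.60% of the 1786 genes of at least the level of the last member. Together they held 2.55% to 3.13% of the assigned reads of a library. The most abundant member, Csa2G139820, ranked between place 7 and place 58 among all genes of a library, by RPKM. Its time means were 1147 ± 112 RPKM in fresh ovaries, 768 ± 101 at day 2, 890 ± 130 at day 10, 773 ± 83.0 at day 20, 899 ± 37.5 at day 30 and 1040 ± 18.4 at day 60 (SD, n = 3 each). It was thus high at both ends of the series and lower between, and the fresh ovary libraries, at 1131, 1044 and 1266 RPKM, did not overlap those of day 2, at 726, 696 and 883.

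The next members by level showed other orders of the times. Csa3G797610 was highest at day 2, with 828 ± 30.5 RPKM, and lowest at day 20, with 580 ± 53.8 (SD, 3 libraries each). Csa3G116860 lay between 379 ± 15.9 RPKM at day 20 and 486 ± 44.0 at day 30. Csa6G499720, the tenth by level, was one of the 3 members with the highest mean at day 20, where it reached 333 ± 24.1 RPKM, and it was lowest at day 60, at 225 ± 9.95. The most abundant members thus did not share an order of times. The ratios of highest to lowest mean of these 10 ranged from 1.28 for Csa5G152800 to 1.49 for Csa2G139820. The others of the 10, Csa6G014790, Csa4G651970, Csa6G046270, Csa6G365170 and Csa4G290810, averaged 431, 385, 382, 365 and 298 RPKM.

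Just inside it lay Csa2G060400, Csa6G318710 and Csa2G301530, with ratios of highest to lowest mean of 1.4996, 1.4956 and 1.4947. Just outside it, at no lower a level than the last member, lay Csa3G116710, Csa7G452000 and Csa7G428820, at 1.50004, 1.50008 and 1.5011. By level the last members were Csa3G881580 and Csa1G423230, with averages of 44.8 and 44.5 RPKM, and the next steady genes were Csa4G107390 and Csa1G031810, at 43.3 and 43.1 RPKM. The genes on both sides of each limit thus lay close together. Of the 100 members 46 had a ratio of at least 1.4, and 4 a ratio under 1.2.

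The authors' gene lengths, recovered from the same steps, had a median of 2368.5 bases over the members, against 1715.5 over 1672 genes of the same level that missed the threshold and 3131 over 16165 of the genes tested. The least covered library of a member held between 484 and 40052 of its reads. Counting error alone would give a coefficient of variation of 4.55% at the former depth and of 0.4997% at the latter.

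**Figure D1:**
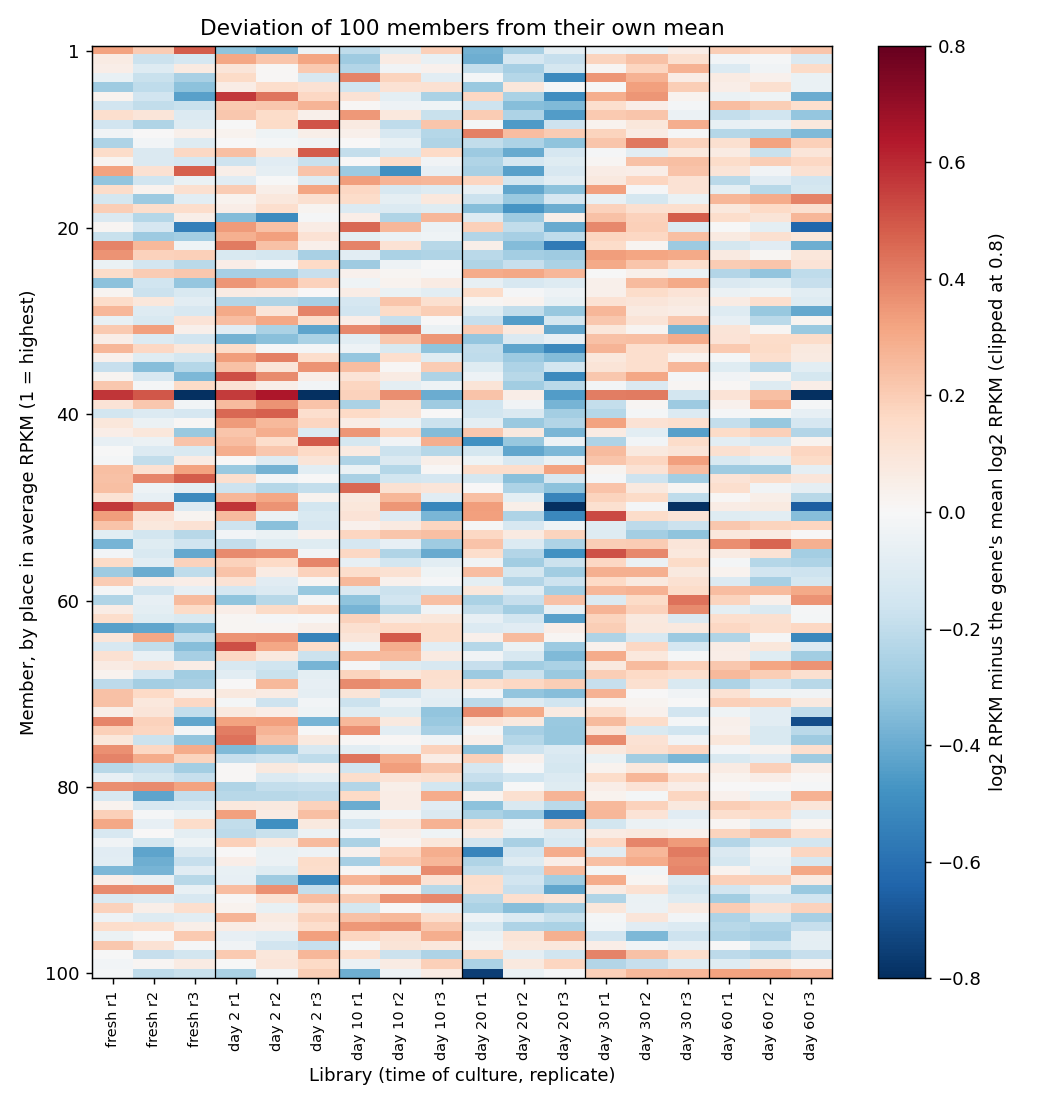
Deviation of each of the 100 members (rows, in order of average RPKM) from its own mean log2 RPKM in each of 18 libraries (columns, 3 per time), with red above and blue below the mean. The columns of day 20 are mostly blue and those of day 30 mostly red, and the darkest cells of row 38 are replicate 3 libraries.

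Single libraries spread more widely than the means. The highest of the 18 libraries was under 1.5 times the lowest in 17 of the 100 members and under 2 times the lowest in 91. This ratio ran from 1.251 to 4.05 with a median of 1.64, where the ratio of time means had a median of 1.39. The coefficient of variation over the 18 libraries had a median of 14.5%, from 6.23% to 33.8%. The SD of log2(RPKM + 1) over the 18 libraries had a median of 0.21 in the members, 0.64 in the 1686 genes of the same level that missed the threshold, and 0.50 in the 18153 genes tested.

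The spread of the 3 libraries within a time holds the differences between the samples as well as counting error. The pooled coefficient of variation within times had a median of 8.39%, from 2.80% to 47.8%. In the genes of the same level that missed the threshold the median was 11.9%, over 1672 of them above 0 in all libraries. On the log2(RPKM + 1) scale the SD within times had a median of 0.12 in the members, 0.17 in those genes and 0.19 in all genes tested. Noise within a time also enters the time means, so the rule favours genes with little of it, and the lower spread of the members is a description. Of the variation of a member over the 18 libraries, a median of 71.0% lay between times, and in 80 of the 100 members it was more than the part within times. In the 1686 genes of the same level that missed the threshold the median was 95.1%. Spread within times also enters this share, which is thus above 0 even where no level changes.

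Csa1G707620 had the widest spread of all members. It was read at 150, 142 and 56.8 RPKM in replicates 1, 2 and 3 of the fresh ovaries, at 148, 158 and 38.9 at day 2, and at 114, 130 and 76.6 at day 10. It stood at 118, 104 and 73.9 RPKM at day 20, at 134, 134 and 91.1 at day 30, and at 109, 119 and 47.0 at day 60. At every time the replicate 3 library was the lowest, while the time means stayed between 91.7 and 120 RPKM. A ratio of means of 1.305 thus went with a ratio of single libraries of 4.05. Only 6.29% of its variation lay between times.

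Csa3G912980 behaved alike, with replicates 1, 2 and 3 at 121, 112 and 75.8 RPKM in fresh ovaries, at 121, 105 and 73.9 at day 2 and at 87.2, 104 and 57.0 at day 10. At day 20 it stood at 103, 84.5 and 47.0 RPKM, at day 30 at 89.5, 81.0 and 47.3, and at day 60 at 85.1, 86.0 and 51.7. The replicate 3 library was again the lowest at each of the 6 times. Its recovered length, 425 bases, is short, and its least covered library held 859 reads. The other members among the 5 with the widest spread, Csa4G293070, Csa6G046270 and Csa5G212590, had single libraries that differed 2.14-fold, 2.09-fold and 2.13-fold.

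**Figure D2:**
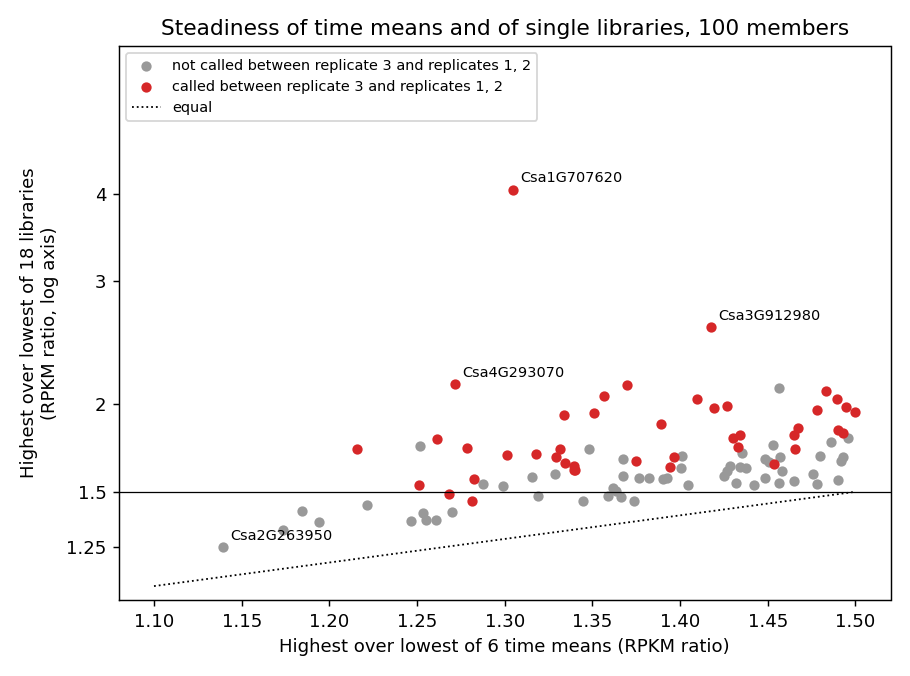
Highest over lowest RPKM of the 18 single libraries (vertical, log axis) against highest over lowest of the 6 time means (horizontal) for the 100 members, red where the replicate 3 libraries were called different from replicates 1 and 2. Most points lie above the line at 1.5, and Csa1G707620 stands apart at 4.05.

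Whether the replicate numbers differ was tested, because the rule averages them and so did not use that difference. limma was fitted to log2(RPKM + 1) of all 18153 genes tested, with a term for each time and one for replicate 3, and genes with an adjusted p (Benjamini-Hochberg) below 0.05 count as called. Of the 100 members 43 were called, 16 higher and 27 lower in the replicate 3 libraries. Of all genes tested 26.8% were called, 14.6% higher and 12.1% lower. Of the 1686 genes of the members' level that missed the threshold 42.5% were called, 286 higher and 430 lower. The share among the members was thus close to that among other genes as abundant.

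The size of the replicate difference was modest in most of these members. Its median among the 43 was 0.24 on the log2 scale, in either direction, and 18 of them differed more than 1.2-fold and 2 more than 1.5-fold. The replicate 3 library was the lowest at all 6 times in 24 of the 27 members called lower and the highest at all 6 times in 10 of the 16 called higher. A call of this same difference favours such an order, so these counts are a description. Csa1G707620 averaged 130 RPKM in replicates 1 and 2 and 64.1 in replicate 3, a log2 difference of -1.06 (SE 0.14, limma adjusted p = 0.000129). The difference of Csa3G912980 was -0.75 (SE 0.06) and that of Csa4G293070 was -0.52 (SE 0.06). Csa6G518250 fell to 76.9 RPKM from 105 and Csa5G212590 to 149 from 198, which are log2 differences of -0.44 and -0.41.

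Among members that were higher in replicate 3, Csa4G050830 had the largest difference, 0.37 (SE 0.05, limma adjusted p = 0.000228), and was chosen for mention after its value was seen. It averaged 59.3 RPKM in replicates 1 and 2 and 76.9 in replicate 3, and replicate 3 was the highest at all 6 times. Csa2G139820, the most abundant member, was also higher there, by 0.21 (SE 0.04). Depth and replicate number cannot be told apart in these libraries, and the labels used here do not say what the number stands for. Across the 100 members the difference showed a Spearman rho of 0.02 with recovered length, and across 16165 genes tested one of 0.17, given as a description.

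**Figure D3:**
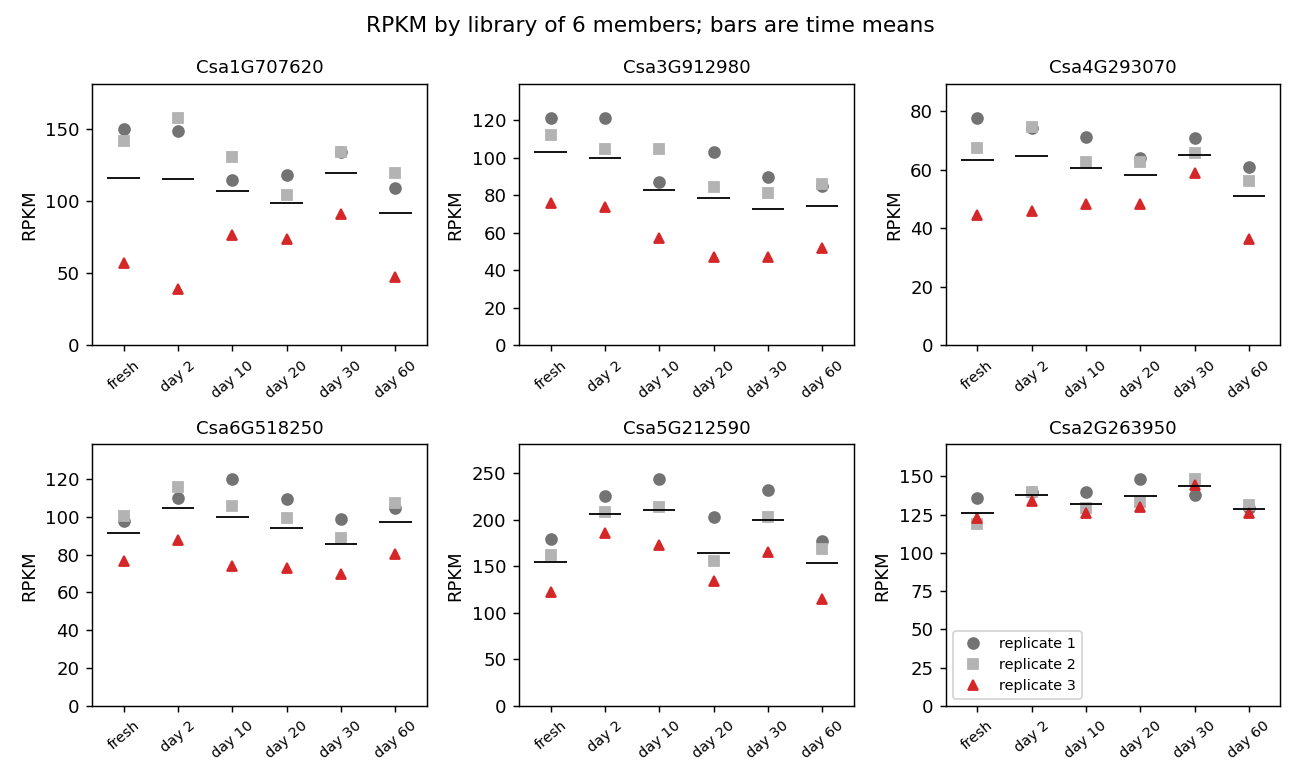
RPKM in every library of the 5 members with the largest called replicate 3 difference and of Csa2G263950, by time, with bars at the mean of the 3 libraries. In the first 5 panels the replicate 3 library (red triangles) is the lowest at all 6 times, while in Csa2G263950 the replicates lie between 119 and 149 RPKM.

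Over the 6 times 74 of the 100 members were called as varying by limma, where 92.0% of all genes tested were called, and the rule used this contrast. Csa1G574830, singled out after its values were seen, was called at all 5 steps, with log2 differences between -0.42 and 0.27. At the other end 21 members were called at 0 steps, among them Csa1G707620 and Csa3G912980, whose log2 differences between neighbouring times had an SE of 0.49 and 0.33. How many of all genes were called at 0 steps was not counted. This fit has no term for the replicate number, so replicate differences count as spread in it. With such a term, the replicate block, Csa3G912980 was called as varying over the 6 times and Csa1G707620 was not.

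The counts of members called at each step follow. From fresh ovaries to day 2, 42 members were called, 26 higher and 16 lower, where 63.4% of all genes were called, 31.1% higher and 32.3% lower. From day 2 to day 10, 33 were called, 15 higher and 18 lower, beside 53.8% of all genes, 21.9% higher and 31.9% lower. From day 10 to day 20, 23 were called, 4 higher and 19 lower, beside 30.9%, 16.4% higher and 14.5% lower. All these are counts in a contrast that the rule used, and nothing is read from them.

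From day 20 to day 30, 48 members were called, 44 higher and 4 lower, beside 55.1% of all genes, 38.1% higher and 16.9% lower. From day 30 to day 60, 21 were called, 4 higher and 17 lower, beside 40.3%, 17.2% higher and 23.1% lower. Libraries of the same number deviated together, with correlations of deviations over 0.1 in each pair, at 4 of the 5 steps. From day 2 to day 10 the correlations were 0.21, 0.0805 and 0.537 for replicates 1, 2 and 3. The deviations of the 3 libraries of a time sum to 0. A shift shared by the replicate 3 libraries thus raises the correlations of replicates 1 and 2 too, and their values do not show a pairing. With the replicate block 57 members were called from fresh ovaries to day 2, beside 12724 of the 18153 genes tested. From day 10 to day 20 the block gave 44 members beside 7289 genes. It gave 71 beside 11600 from day 20 to day 30, and 41 beside 9224 in the last step. From day 2 to day 10 the block gave 55 members beside 11158 genes. The count from day 10 to day 20 was 14 without replicate 2 of day 10, beside 4966 of 18129 genes tested. It was 13 without replicate 2 of day 20, beside 4754 of 18080. It was 18 without replicate 1 of both times, the libraries with the fewest genes above 0, beside 4941 of 18029.

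The scalings pulled in opposite directions at day 20. Median-ratio scaling sets the typical gene level in all libraries, and its factors, by which RPKM is divided, averaged 0.911 at day 20 and 1.098 at day 30. TPM scaling, chosen after the data were seen, sets the sum of RPKM equal, and its factors averaged 1.09 at day 20 and 0.977 at day 30. Upper quartile scaling gave 0.963 and 1.04. The members' own geometric mean stood at 0.915 of its average at day 20 and at 1.06 at day 30, on the side of the median-ratio factors at both times. At day 10 it stood at 1.015, where the median-ratio factor was 0.933. The members' mean is near 1 by construction of the rule.

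The day that held a member's lowest mean changed accordingly. It was day 20 for 37 members as deposited, for 24 with upper quartile, for 10 with median-ratio and for 71 with TPM scaling. The highest mean was at day 30 for 26, 8, 5 and 22 members in the same order. Csa3G116860 had a ratio of highest to lowest mean of 1.28 as deposited, 1.11 under median-ratio scaling and 1.43 under TPM scaling. Csa6G499720 went the other way, with 1.48 as deposited, 1.71 under median-ratio scaling and 1.28 under TPM scaling. The former was lowest at day 20 and the latter highest there.

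**Figure D4:**
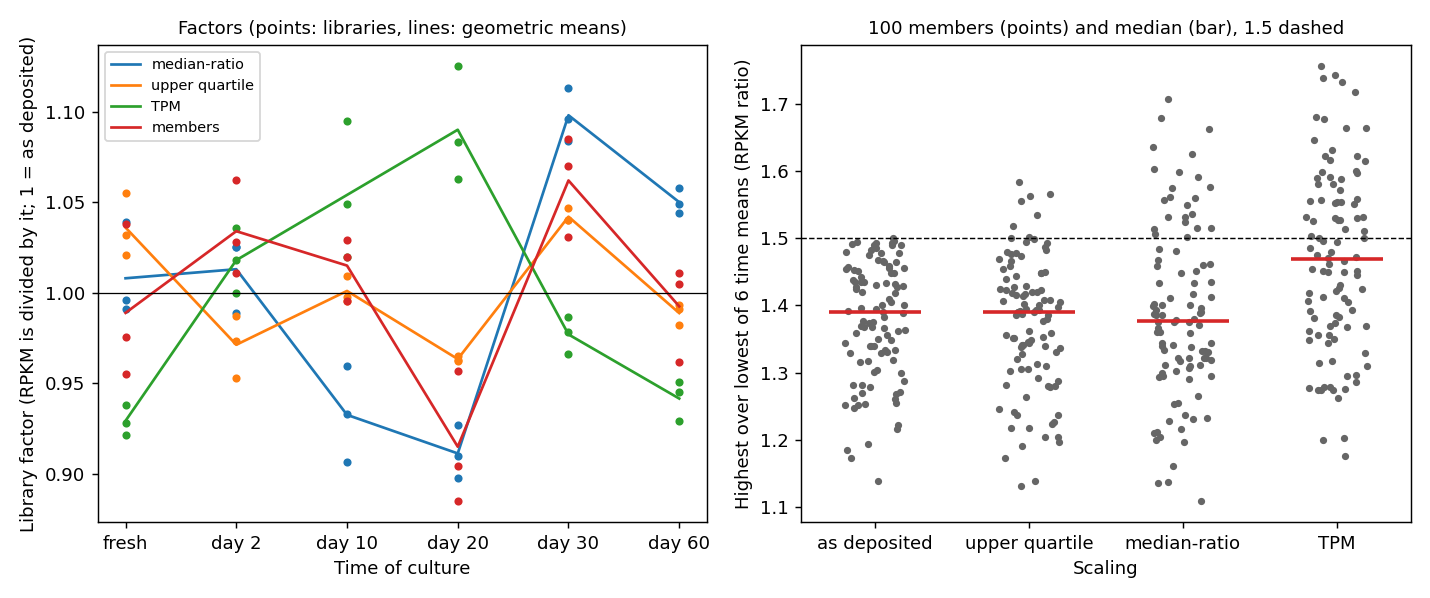
Left, the factor of each library (points) and its geometric mean per time (lines) under 3 scalings and for the members' own geometric mean, where 1 is as deposited. Right, the ratio of highest to lowest time mean of the 100 members under 4 scalings, with the median as a bar. At day 20 the TPM factors lie above 1 and the median-ratio factors below it, and the medians on the right are 1.39 as deposited, 1.39 for upper quartile, 1.38 for median-ratio and 1.47 for TPM scaling.

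The membership moved with the scaling as well. Of the 100 members 93 had a ratio of means under 1.5 with upper quartile, 77 with median-ratio and 57 with TPM scaling, and 41 in all 4 scalings. With the whole rule applied again, 82, 55 and 57 of the members were among the 100 most abundant steady genes, and 1256, 1448 and 777 genes were steady. Under median-ratio scaling the ratio grew the most in Csa3G624050, Csa6G135970, Csa3G881580, Csa7G446700 and Csa1G601530, from 1.34, 1.36, 1.19, 1.43 and 1.41 to 1.58, 1.60, 1.39, 1.66 and 1.64. Of these Csa3G881580 alone stayed under 1.5. Under this scaling the day 30 mean was the lowest of the 6 times in all 5.

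The step from day 20 to day 30 showed the effect on single calls. The median log2 difference of the members was 0.27, beside 0.24 for all genes tested. These medians were 0.16 and 0.15 with upper quartile scaling, 0.01 and 0.02 with median-ratio scaling, and 0.43 and 0.37 with TPM scaling. The members called higher and lower, 44 and 4 as deposited, were 23 and 9 with upper quartile, 3 and 15 with median-ratio and 73 and 1 with TPM scaling. In the same order all genes called higher and lower were 6923 and 3071, 5629 and 3533, 4116 and 4315, and 8642 and 2564. The genes tested were 18153, 18149, 18130 and 18180. A scaling divides all genes of a library by the same factor, so the 2 medians move together by construction.

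At the other steps the split of higher and lower calls moved too. From fresh ovaries to day 2 it was 39 and 10 under upper quartile scaling and 10 and 26 under TPM scaling. All genes split 6192 and 5300 under the former and 4935 and 6731 under the latter. The median log2 difference of all genes tested at this step was -0.02 as deposited, 0.04 with upper quartile scaling and -0.13 with TPM scaling. From day 2 to day 10 the split of the members was 27 and 2 under median-ratio scaling and 11 and 27 under TPM scaling. All genes split 4647 and 4835 under the former and 3700 and 6147 under the latter. From day 10 to day 20 the members split 4 and 10 under median-ratio, 4 and 8 under upper quartile and 3 and 26 under TPM scaling. All genes split 3252 and 2405, 3333 and 2232, and 2617 and 2977 in that order. From day 30 to day 60 the members split 7 and 10, 9 and 8, and 5 and 9 in that order. All genes split 3577 and 3611, 3730 and 3597, and 3485 and 3771. For the replicate 3 libraries the members split 15 and 27, 16 and 27, and 19 and 22. All genes split 2407 and 2410, 2780 and 2142, and 3297 and 1758. Under TPM scaling the members called higher and lower were thus near in number, while all genes leaned towards higher values. As deposited, the other genes of the members' level were called lower more often as well, as given above.

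**Figure D5:**
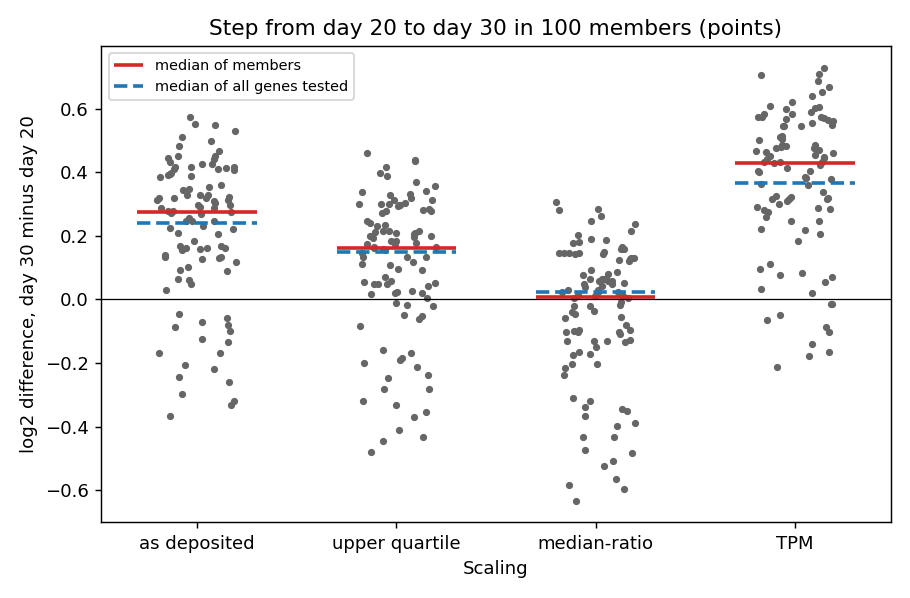
Log2 difference from day 20 to day 30 on log2(RPKM + 1) of the 100 members (points) under 4 scalings, with the median of the members (solid) and of all genes tested (dashed). The median of the members lies at 0.27 as deposited, at 0.01 under median-ratio scaling and at 0.43 under TPM scaling.

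Csa2G263950 was the member with the lowest spread. It read 136, 119 and 122.8 RPKM in fresh ovaries, 140, 140 and 134 at day 2 and 140, 129 and 126 at day 10. At day 20 it read 148, 133 and 130 RPKM, at day 30 138, 149 and 144, and at day 60 129, 131 and 126. The libraries of all times overlapped with those of at least one other time, and the highest was 1.251 times the lowest. The SD of log2(RPKM + 1) over the 18 libraries was 0.09, and its ratio of time means was 1.14 as deposited, 1.23 under median-ratio, 1.17 under upper quartile and 1.18 under TPM scaling.

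Csa3G129610, at an average of 45.0 RPKM, and Csa2G033330, at 53.3 RPKM, were the only other members whose single libraries stayed within 1.5-fold under each of the 4 scalings. Their highest library was 1.32 and 1.37 times the lowest as deposited, and at most 1.44 and 1.46 times under the scalings. Csa3G129610 ran from 39.4 to 52.2 RPKM, from 48.5 ± 3.81 RPKM in fresh ovaries to 41.3 ± 2.46 at day 2 by time means (SD, 3 libraries each). The time means of Csa2G033330 ran from 48.2 ± 2.93 RPKM at day 2 to 60.5 ± 2.29 at day 60. Both had calls: Csa2G033330 varied over the 6 times as deposited (limma adjusted p = 0.01025) and under each other scaling. Csa3G129610 was called from fresh ovaries to day 2 as deposited (limma adjusted p = 0.02199), and over the 6 times under median-ratio and TPM scaling. The other members with the lowest spread, Csa3G313200 and Csa3G881580, had single libraries within 1.41-fold and 1.36-fold as deposited.

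Of the 100 members, Csa2G263950, Csa3G313200 and Csa3G881580, 3 in all, were called in 0 of the 7 limma tests, those of the 5 steps, of the 6 times and of replicate 3, and 1 of these 3 had an unadjusted p under 0.05 in a test. With the replicate block 1 of the 3 was called, Csa3G881580. When each of the 4 scalings was used, 0 of the 100 members went without a call. How many of all genes went without a call was not counted, but the test over the 6 times alone called 92.0% of them as deposited. The rule also used the contrasts between times, so nothing about the members is read from these counts. Csa2G263950 was called from fresh ovaries to day 2 under upper quartile scaling, with a log2 difference of 0.23 (SE 0.08), and from day 20 to day 30 under TPM scaling, with one of 0.22 (SE 0.07). It was also called as varying over the 6 times under median-ratio scaling (limma adjusted p = 0.02698) and under TPM scaling (limma adjusted p = 0.04754). A p that misses the threshold does not show that a level was constant.

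Ratios between members do not depend on the scaling. For each member the SD of its log2 ratio to every other member over the 18 libraries was averaged, which gave a median of 0.27 and a range of 0.22 to 0.60. The lowest were Csa2G263950 at 0.221, Csa3G731010 at 0.222, Csa7G017700 at 0.226, Csa4G083630 at 0.232 and Csa3G183360 at 0.234, and the highest was Csa1G707620. These 5 were close to each other, and 3 of them, other than Csa2G263950 and Csa3G731010, had a single-library ratio of 1.53, 1.44 and 1.54 as deposited.

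To see how the rule carries over to libraries it did not use, it was applied to the 12 libraries of 2 replicate numbers and the other 6 libraries were read. With replicate 1, 2 or 3 held out, 83, 86 and 81 of the 100 genes chosen were members. In the held-out libraries the highest was under 1.5 times the lowest in 60, 57 and 57 of the 100 genes, and under 2 times in 95, 100 and 98. Of all genes at that level 5.93%, 4.81% and 5.25% stayed under 1.5 times in the same libraries, and 23.7%, 23.4% and 22.9% under 2 times. The widest ratio of a chosen gene in held-out libraries was 2.53, 1.91 and 2.34, the last for Csa1G707620. A shift shared by all libraries of one number does not enter these ratios.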

How the data were processed

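Deposited values of 18 cucumber RNA-seq libraries, 3 at each of 6 times, were used. The authors deposited RPKM with 1 column per library, per the file headers; for the fresh ovaries 1 header cell lists all 3 libraries, whose order was used for the columns. HTSeq 0.6.1p2, TopHat and TopHat2 are listed in the submitters' processing notes; their roles, the build, the annotation and the strand setting are not stated there. RPKM corrects for depth and gene length, whereas shifts in RNA composition remain in it.

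Whole reads and gene lengths were recovered for the 16440 genes above 0 in all libraries, each value within 0.1 of a whole read, by a method tested on simulated data. Reads and lengths describe depth only. Counting errors are lower bounds, since without molecular identifiers PCR copies count as separate reads.

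limma 3.58.1 in R 4.3.3 (trended, robust) was run on log2(RPKM + 1) for the 18153 genes that reached 1 RPKM in no fewer than 3 libraries, all 18 libraries in 1 model with a term per time, so that a fold change understates that of low genes; all 100 members passed the filter. It was tested on simulated data. Counts were planned for in the design if the files had held them. Libraries of the same number deviated together, with correlations of deviations over 0.1 in each pair, at 4 of the 5 steps (0.154 to 0.629), but not from day 2 to day 10 (down to 0.0805). The replicate block was taken from the data, since the labels share only numbers. For replicates 1 and 2 these correlations do not show a pairing, as given above. Named genes were the 10 highest, the 5 with the lowest and the 5 with the highest spread, those at both edges of the rule, the 5 largest called replicate 3 differences, the 5 that median-ratio scaling moved most and the 5 with the lowest pairwise spread. Members, lists and tests were chosen with earlier results of these data known. Python 3.11.15 with numpy 2.4.6, pandas 2.3.3 and matplotlib 3.10.9 was used for other steps.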

Additional observations from a re-analysis of the deposited data

How the results depend on the processing

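Of 276 alternatives of counts and of the median spread, 261 stayed near the value as deposited. For counts this means within 1.5 times it, and for the median spread within the members' median SD within times, 0.12. Of 84 alternatives of the ratio of highest to lowest mean in 28 named genes, 60 moved by less than the spread within times. TPM scaling, voom on the recovered reads and the fit without replicate 1 of day 10 and day 20 were chosen after the data were seen. The members kept were 55 under median-ratio scaling, 57 under TPM scaling, and 21 with a threshold of 1.3 and 21 with one of 2, where another set of genes is the most abundant by construction. The members with single libraries within 1.5-fold were 11 under TPM scaling. The members called from day 10 to day 20 were 14 under median-ratio and 12 under upper quartile scaling, and those from day 20 to day 30 were 18 under median-ratio and 74 under TPM scaling; the cause was not tested beyond the factors given above. With the replicate block 55 members were called from day 2 to day 10 and 44 from day 10 to day 20. From day 30 to day 60 it gave 41, and the block moved no other count by over 1.5 times. Over the 6 times 94 members were called with the block, where 17430 of the 18153 genes tested were called. With no replicate block, that is with no term for time, variation over time counts as spread, and 2 members were called in the replicate 3 comparison. Of the 18153 genes tested 27 were called in that fit. Leaving out 1 library gave 68 to 80 members called over the 6 times, 31 to 44, 24 to 35, 13 to 25, 36 to 55 and 14 to 24 at the 5 steps in order, and 33 to 44 for replicate 3. In these fits 16273 to 16804 of all genes were called over the 6 times and 3406 to 5172 for replicate 3. At the 5 steps in order 10510 to 11983, 8781 to 10166, 4754 to 5648, 8925 to 10514 and 5893 to 7935 were called. Leaving out 1 library also gave 85 to 99 members kept, 17 to 20 and 91 to 94 with single libraries within 1.5-fold and 2-fold, and a median SD of 0.20 to 0.21. The 5 largest replicate 3 differences kept their direction in 130 alternatives and stayed called in 127, the other 3 being fits with no term for time, where the adjusted p was 0.0879 for Csa4G293070, 0.101 for Csa6G518250 and 0.484 for Csa5G212590. Counting error limits few members, since the least covered library of a member held 484 reads.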

Other observations

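The ratio of Csa6G365730 to Csa3G008310 was the most constant of all pairs of members, with an SD of its log2 over the 18 libraries of 0.07. It ran from 2.52 to 2.93 around a geometric mean of 2.70, although each of the pair differed more between times. This pair was picked from all pairs of these data, so the value describes these libraries. The next pairs were Csa7G450550 with Csa7G282410, at an SD of 0.09, and Csa3G116860 with Csa3G131930, also at 0.09.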
